A study of Mus musculus with 6 samples.

Results

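The 10 mature microRNA (miRNA) arms described here belong to the miR-10, miR-99/100 and miR-125 families: mmu-miR-10a-5p, mmu-miR-10b-5p, mmu-miR-99a-5p, mmu-miR-99a-3p, mmu-miR-99b-5p, mmu-miR-99b-3p, mmu-miR-100-5p, mmu-miR-125a-5p, mmu-miR-125a-3p and mmu-miR-125b-5p. The prefix for mouse is dropped from here on. They were chosen by name, and all 10 were found among the 1414 rows of the deposited table, with counts in every library. Small RNA of mouse pancreas was sequenced in 6 libraries, 3 per group. The control libraries, replicates 43, 44 and 45, came from C57BL/6 mice injected with saline. The model libraries, replicates 56, 57 and 59, came from C57BL/6 mice given caerulein and LPS. Caerulein is a cholecystokinin analogue that overstimulates acinar cells, LPS is a bacterial cell wall component, and their combination is used to cause acute pancreatitis. Mice of 22 to 25 g received 7 intraperitoneal injections 1 hour apart, caerulein was given at a labelled 50 mg/kg, LPS was added to the last injection, and pancreas was taken 24 hours after the start. With no group on either agent by itself, what caerulein did and what LPS did cannot be told apart. Caerulein is commonly dosed in micrograms per kg, so the unit in the label is uncertain. Age and sex of the mice and the dose of LPS are not given in the sources used here. Whether the 3 libraries of a group are from separate animals is not in the labels either, and p-values therefore cover only the spread among these libraries, which may be technical.

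A mature miRNA loads into an Argonaute protein and pairs with target mRNAs mainly through its seed, bases 2 to 8 from the 5′ end. The hairpin precursor gives a 5p and a 3p arm, of which usually the more abundant one, the guide, is retained and the other, the passenger or star strand, is degraded. The miR-10 genes lie in the Hox clusters and regulate Hox and other mRNAs, miR-99/100 miRNAs are known to repress the growth kinase mTOR and the IGF-1 receptor, and the miR-125 miRNAs are the mammalian relatives of worm lin-4, with Lin28 among their targets and known roles in blood and immune cells.

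The sequences of the 7 guide arms are shown first, because they decide which members share targets and which can be confused in counting. They are RefSeq's, on GRCm38.p6, all 10 members matched by name, and all 10 were identical to the deposited sequences. Capitals mark the seed.
miR-10a-5p: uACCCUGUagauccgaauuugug
miR-10b-5p: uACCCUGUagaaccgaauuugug
miR-99a-5p: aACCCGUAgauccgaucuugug
miR-99b-5p: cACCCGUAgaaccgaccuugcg
miR-100-5p: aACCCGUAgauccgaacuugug
miR-125a-5p: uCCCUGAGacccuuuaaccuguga
miR-125b-5p: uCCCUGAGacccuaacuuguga

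The miR-10 pair, the miR-99/100 trio and the miR-125 pair each share a seed of their own. Counting positions from 1 at the 5′ end, miR-10a-5p and miR-10b-5p differ by the single substitution U12A, and miR-99a-5p and miR-100-5p by U16A. From miR-99a-5p to miR-99b-5p there are 4 substitutions (A1C, U11A, U16C and U21C), none within the seed. The miR-125 pair are identical over their first 13 bases. A read with 1 sequencing error at the deciding base could be counted for the other member of the first 2 pairs, so the split between miR-10a-5p and miR-10b-5p, and between miR-99a-5p and miR-100-5p, carries that uncertainty. The arms miR-99a-3p and miR-99b-3p also share a seed and are identical over their first 9 bases.
miR-99a-3p: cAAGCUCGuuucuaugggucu
miR-99b-3p: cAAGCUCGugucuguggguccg
miR-125a-3p: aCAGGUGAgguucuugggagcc

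Outside the members, only 2 rows of the table carried one of the 3 guide seeds, both that of miR-125. These were miR-351-5p, with 14 to 62 counts per library, and a predicted miRNA with 49 to 74. Seed-matched reads in this pancreas were therefore almost entirely those of the members.

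Apart from the miR-10 genes, the members sit in 3 paralogous clusters, each with a miR-99/100 hairpin, a let-7 hairpin and a miR-125 hairpin in that order on the plus strand. On GRCm38, the shortest is on chromosome 17, where Mir99b (17830188 to 17830257), Mirlet7e (17830352 to 17830444) and Mir125a (17830812 to 17830879) fit within 692 bp. In the GENCODE M21 annotation Mir99b and Mirlet7e lie in an intron of the protein-coding Spaca6, and Mir125a overlaps an exon of it. The cluster on chromosome 16 holds Mir99a (77598936 to 77599000), Mirlet7c-1 and, 47337 bp after the start of Mir99a, Mir125b-2 (77646273 to 77646343), within introns of the noncoding Mir99ahg. The third, on chromosome 9, holds Mir100 (41531425 to 41531504), Mirlet7a-2 and, 50501 bp after the start of Mir100, Mir125b-1 (41581926 to 41582002), within introns of the noncoding 3110039I08Rik. Exons of further annotated genes also overlap Mir125b-2 (C130023A14Rik), Mir125b-1 (Gm28119), Mir100 (Gm48742, minus strand) and Mirlet7e (Gm25927, minus strand). Mir99a and Mirlet7c-1 also lie in an intron of the protein-coding Gm11146 on the minus strand. Because Mir125b-1 and Mir125b-2 give the same 5p arm, miR-125b-5p cannot be assigned to either hairpin. Mir10b (chromosome 2, 74726070 to 74726137) lies in introns of Hoxd3 and Hoxd4, and Mir10a (chromosome 11, 96317165 to 96317274) overlaps no other annotated gene.

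Libraries held 1943693 to 3006220 miRNA counts, and 907 to 1065 rows had a count. Levels are given in CPM, each count relative to the TMM-scaled total of its library. A count of 0 would have allowed up to 3 counts, or 0.897 to 1.80 CPM, and such limits cover counting error only. All 4 acinar marker miRNAs were counted in every library, with a summed level of 55777 to 92618 CPM in control and 47827 to 50990 CPM in model libraries. Control replicate 45 held the value of 92618 CPM, while the other 2 controls were at 55777 and 56278. The 5 leukocyte miRNAs, also all counted in every library, summed to 4590 to 6865 CPM in control and 5332 to 11466 CPM in model libraries, the highest in model replicate 57. This list was split. Its most abundant miRNA, miR-150-5p, had means of 4404 CPM in control and 3454 CPM in model libraries, with overlap. The others had higher means in model libraries: miR-223-3p (321 and 2162 CPM), miR-155-5p (121 and 907), miR-142a-3p (337 and 922) and miR-142a-5p (269 and 533). Of these, only miR-142a-5p overlapped between the groups. In bulk tissue, fewer cells of a type and less RNA per cell cannot be told apart.

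The 10 members together made up 6.32% ± 0.288 of the miRNA counts of control libraries and 5.85% ± 0.231 of those of model libraries (SD over 3 libraries). Most of this was the miR-99/100 family, at 4.32% ± 0.570 and 3.94% ± 0.178. The miR-10 pair took 1.08% ± 0.270 and 1.12% ± 0.109. For the miR-125 pair the shares were 0.916% ± 0.674 and 0.783% ± 0.175, with 1.68% in control replicate 45 against 0.404% to 0.969% elsewhere. The 3 passenger arms together took 0.00755% ± 0.00174 and 0.0159% ± 0.00321.

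Mature miRNAs are nearly equal in length (21 to 24 bases among the members), so levels in CPM were ordered without a length correction, although ligation efficiency differs between sequences. In control libraries miR-99a-5p came first, at 36794 ± 5131 CPM (SD, n = 3), with its lowest library above the highest of any other member. It was followed by miR-10a-5p (8095 ± 2198), miR-99b-5p (7462 ± 1896) and miR-125b-5p (7162 ± 6589), and then by miR-10b-5p (3867 ± 891), miR-100-5p (3815 ± 850) and miR-125a-5p (3167 ± 1480). Each neighbour among these 6 overlapped the next in its range over libraries, so the order of neighbours is not resolved. Still, the lowest controls of miR-10a-5p (6017 CPM) and miR-99b-5p (6187 CPM) lay above the highest of miR-10b-5p (4852), miR-100-5p (4692) and miR-125a-5p (4855). The passenger arms miR-99b-3p, miR-99a-3p and miR-125a-3p formed a separate tier at 35.4 ± 3.14, 31.9 ± 12.4 and 16.1 ± 2.58 CPM. In model libraries the same 3 tiers were seen, and miR-125a-5p, at 2025 ± 226 CPM, had its highest library below the lowest of every other guide arm.

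**Figure D1:**
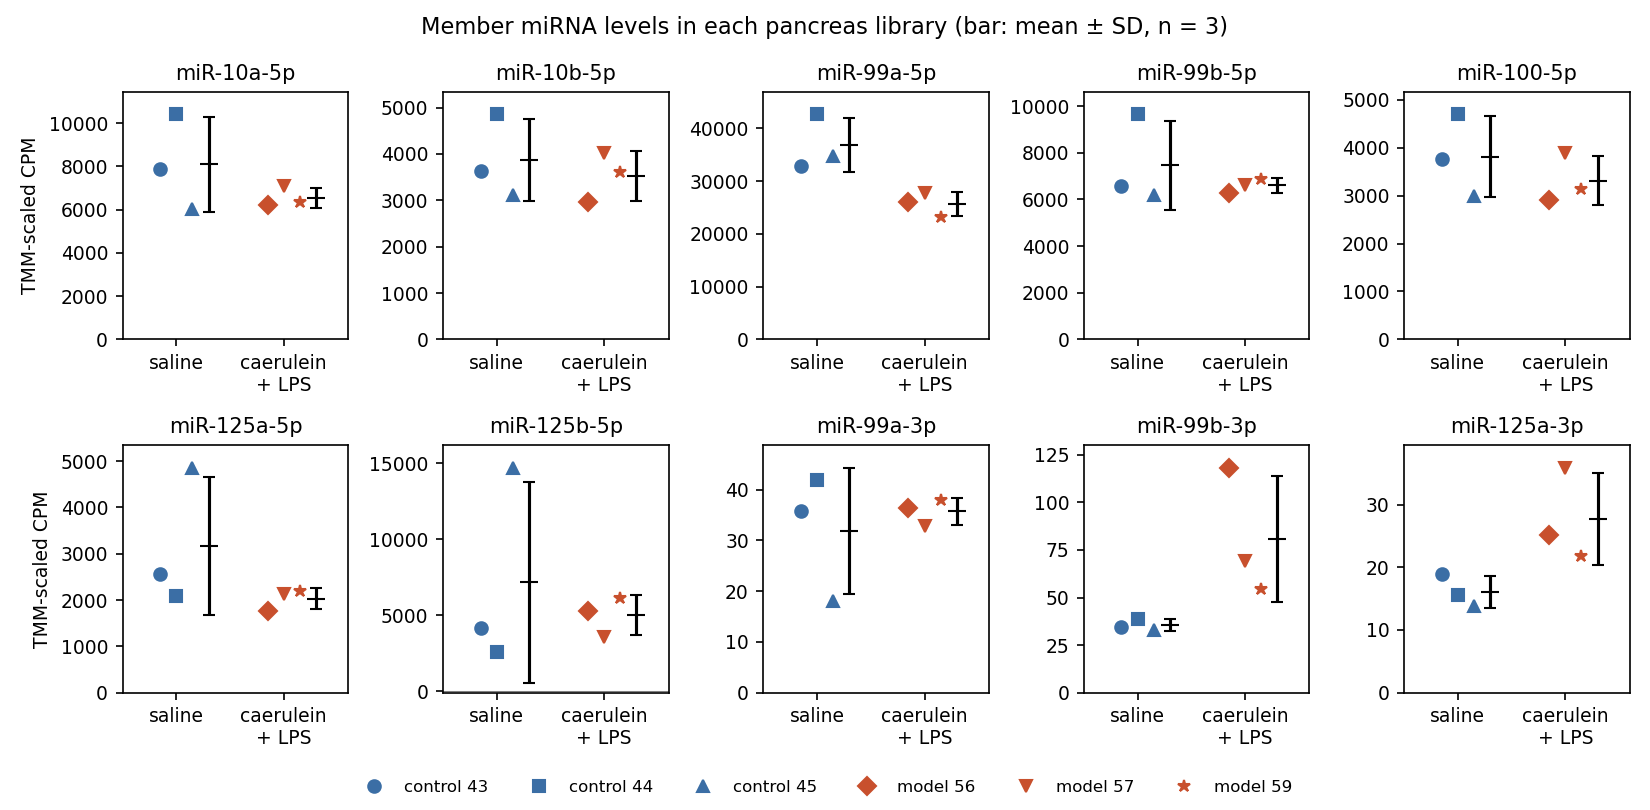
Level of each member in each library, in TMM-scaled CPM on a linear axis that includes 0, with 1 symbol per library and the mean ± SD of 3 libraries as a bar. Groups did not overlap for miR-99a-5p (model lower), miR-99b-3p and miR-125a-3p (both model higher), and control replicate 45 stood apart for miR-125b-5p at 14715 CPM.

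The comparison asked which members differ between pancreas after caerulein with LPS and after saline. No member passed the threshold: 0 of 10 had an adjusted p under 0.05 in edgeR's quasi-likelihood test, adjusted over all 499 rows tested, of which 1.20% passed. At an unadjusted p under 0.05 there were 3 members, miR-99b-3p and miR-125a-3p with higher and miR-99a-5p with lower values in the model group, where 23.8% of all rows were that low. DESeq2 called 1 member, miR-99b-3p, among 33 of the 535 rows to which it gave an adjusted p (6.17%). The groups did not overlap for 3 of 10 members, against 31.1% of all rows. The share of members without overlap was thus close to the background. The median log2 fold change was -0.19 over the members and 0.00 over all rows tested.

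The most abundant member, miR-99a-5p, ranked 7th of all tested rows by mean level. Control replicates 43, 44 and 45 had 32938, 42617 and 34827 CPM, and model replicates 56, 57 and 59 had 25975, 27657 and 23243 CPM. All 3 model libraries lay below all 3 controls. The mean in model libraries was 0.696 times that in controls, a log2 fold change of -0.52 (SE 0.13, adjusted p by edgeR = 0.0802), and this value was -0.81 with upper quartile factors (edgeR adjusted p = 0.0363), -0.54 with no filter on low counts (edgeR adjusted p = 0.0340) and 0.27 with the authors' library totals (edgeR adjusted p = 0.356). The 2 endocrine miRNAs summed to 58828 to 80826 CPM in control and 38838 to 52091 CPM in model libraries, and the 2 endothelial ones to 40568 to 47690 and 32211 to 37872 CPM, also without overlap. The endocrine sum was mostly miR-375-3p, with means of 60741 CPM in control and 36724 CPM in model libraries. The other endocrine miRNA, miR-7a-5p, had nearly equal means in both groups. Most of the endothelial sum was miR-126a-3p, with means of 39334 CPM in control and 30566 CPM in model libraries. The other endothelial arm, miR-126a-5p, went the other way (4943 and 5390 CPM) with overlap. The acinar sum also lay lower without overlap, at 55777 to 92618 CPM in control and 47827 to 50990 CPM in model libraries. Of the 4 acinar miRNAs, only miR-217-5p overlapped between the groups. The part of endocrine, endothelial and acinar cells in the value of miR-99a-5p was not tested.

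Its relatives with the same seed were closer to 0. The chromosome 17 member miR-99b-5p was at 6558, 9640 and 6187 CPM in controls and 6266, 6638 and 6889 CPM in model libraries, with a log2 fold change of -0.18 (SE 0.20, adjusted p by edgeR = 0.657). The chromosome 9 member miR-100-5p was at 3759, 4692 and 2995 CPM in controls and 2918, 3885 and 3133 CPM in model libraries, with a log2 fold change of -0.20 (SE 0.22, adjusted p by edgeR = 0.652). For miR-100-5p this was -0.040 without control replicate 44, -0.067 without model replicate 56 and -0.38 without control replicate 45. For both, the model libraries lay inside or just below the range of the controls.

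Among the miR-10 miRNAs, miR-10a-5p was at 7871, 10396 and 6017 CPM in controls and 6212, 7086 and 6353 CPM in model libraries (log2 fold change -0.31, SE 0.21, adjusted p by edgeR = 0.433, and -0.096 without control replicate 44 or -0.51 without control replicate 45). Its near-identical relative miR-10b-5p had 3631, 4852 and 3117 CPM in controls against 2959, 4014 and 3601 CPM in model libraries (log2 fold change -0.13, SE 0.22, adjusted p by edgeR = 0.787). The groups overlapped for both, and control replicate 44 held the highest value of each.

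Among the guide arms, the miR-125 pair varied most between control libraries. For miR-125b-5p the controls were at 4177, 2596 and 14715 CPM, a spread of 5.67 times, and the model libraries at 5256, 3594 and 6166 CPM, a spread of 1.72 times. Its log2 fold change of -0.52 (SE 0.62, adjusted p by edgeR = 0.693) turned to 0.54 without control replicate 45 (edgeR adjusted p = 0.314). With the same library high, miR-125a-5p was at 2551, 2094 and 4855 CPM in controls and 1767, 2120 and 2186 CPM in model libraries. Its log2 fold change was -0.65 (SE 0.32, adjusted p by edgeR = 0.274) with all libraries and -0.22 without that control. Control replicate 45 was also the library with the high sum of acinar miRNAs given above. Of that list, miR-216b-5p varied little between controls (7644 ± 586 CPM). The control spread was wider for miR-148a-3p (30600 ± 12233 CPM), miR-216a-5p (27827 ± 6775 CPM) and miR-217-5p (2153 ± 1737 CPM). The part of acinar cells in the miR-125 values was not tested.

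All 7 guide arms had negative log2 fold changes with TMM factors, from -0.65 to -0.13, but all 7 were positive with the authors' library totals and 3 of them (miR-10b-5p, miR-99b-5p and miR-100-5p) with total counts alone. These scalings moved the median of all rows by 0.79 and 0.30, and upper quartile factors moved it by -0.29, so the signs hold only relative to the typical miRNA. Negative values were the common case at this level: 70 of the 99 rows of at least 1000 CPM had one (70.7%), with a median of -0.27 against -0.31 for the guide arms. Over all levels 50.3% of rows were positive, and 3 of the 10 members. Leaving out control replicate 44 turned miR-10b-5p to 0.052 and miR-99b-5p to 0.039, and leaving out model replicate 56 turned miR-10b-5p to 0.031.

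**Figure D2:**
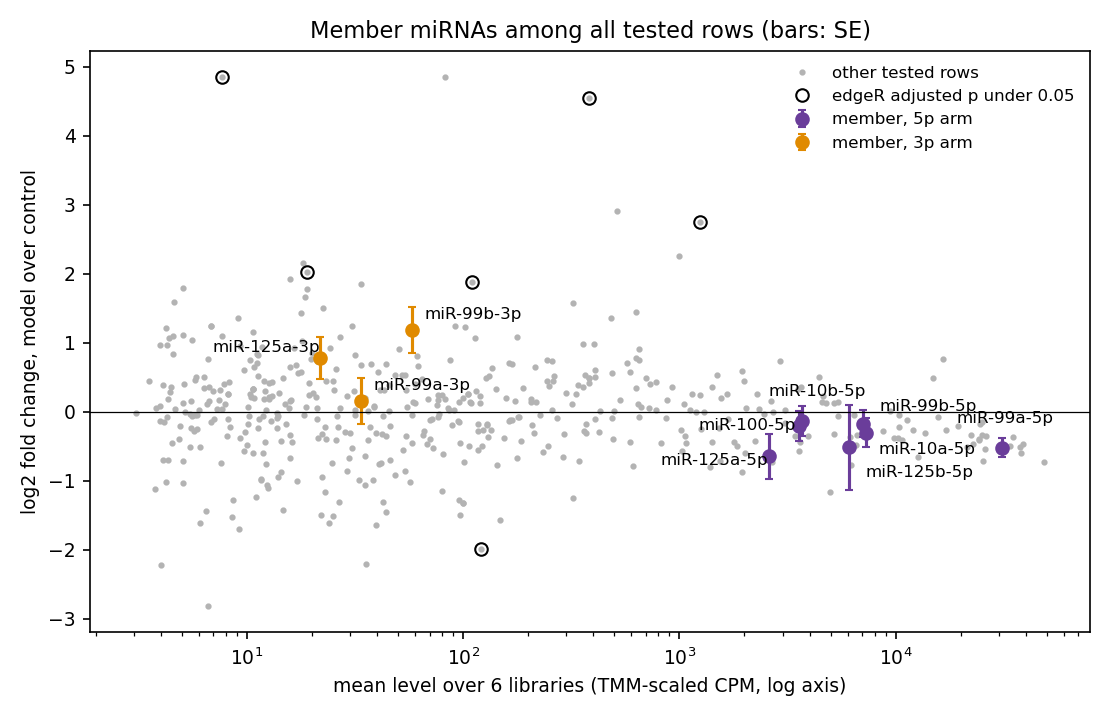
Log2 fold change (model over control) of every tested row against its mean level in TMM-scaled CPM on a log axis, with members in colour and bars of 1 SE. The 7 guide arms (purple) sit between -0.65 and -0.13 at over 1000 CPM, the 3 passenger arms (orange) between 0.16 and 1.19 at under 100 CPM, and no member is among the 6 circled rows with an adjusted p under 0.05.

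The 3 passenger arms had values of the other sign. For miR-99b-3p the controls held 89, 80 and 55 counts (34.3, 38.9 and 33.0 CPM) and the model libraries 319, 226 and 183 counts (118, 69.3 and 54.7 CPM). Every model library was above every control, and the model mean of 80.7 ± 33.3 CPM was 2.28 times the control mean. Its log2 fold change was 1.19 (SE 0.33, adjusted p by edgeR = 0.0898). The value stayed positive in all 15 alternatives, from 0.86 without model replicate 56, the highest library, to 1.92 with the authors' library totals. The adjusted p was under 0.05 in 4 of them: with DESeq2 (0.0317), with no filter on low counts (edgeR, 0.0233), with total counts alone (edgeR, 0.0496) and with the authors' library totals (edgeR, 0.0021).

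For miR-125a-3p, from the other end of the same cluster, controls held 49, 32 and 23 counts (18.9, 15.6 and 13.8 CPM) and model libraries 68, 117 and 73 counts (25.2, 35.9 and 21.8 CPM). Again all model libraries were above all controls, with 1.72 times the control mean and a log2 fold change of 0.77 (SE 0.31, adjusted p by edgeR = 0.175). This value too was positive in all 15 alternatives, and its adjusted p was under 0.05 with the authors' library totals alone (edgeR, 0.0197). It was 0.49 with upper quartile factors and 1.55 with the authors' totals. Model replicate 57, its highest library, also had the highest sum of leukocyte miRNAs, while miR-99b-3p was highest in model replicate 56, whose leukocyte sum of 5332 CPM lay within the range of the controls. The leukocyte list was split, as given above. Its miR-223-3p was higher in every model library, model replicate 56 included, than in every control. The part of leukocytes in the values of miR-125a-3p and miR-99b-3p was not tested.

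The passenger arm of the chromosome 16 hairpin, miR-99a-3p, shares its seed with miR-99b-3p. It was at 35.8, 41.9 and 18.0 CPM in controls and 36.3, 32.8 and 38.0 CPM in model libraries (log2 fold change 0.16, SE 0.34, adjusted p by edgeR = 0.829), and its sign turned without control replicate 45 (-0.15) and with upper quartile factors (-0.14). Over all rows of 10 to 100 CPM, the level of these arms, the median log2 fold change was 0.03, and over the 109 3p arms among them it was -0.07.

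Library scaling cancels when the 5p count is divided by the 3p count of the same hairpin. This ratio is shown next for the hairpins with a 5p arm of their own and enough counts on both arms. No ratio was formed for the miR-125b hairpins, whose shared 5p arm cannot be assigned to either. The hairpins of miR-99b-3p and miR-125a-3p, both on chromosome 17, are printed here as deposited, with both arms in capitals.
mir-99b: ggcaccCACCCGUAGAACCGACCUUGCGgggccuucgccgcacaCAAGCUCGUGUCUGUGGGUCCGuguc
mir-125a: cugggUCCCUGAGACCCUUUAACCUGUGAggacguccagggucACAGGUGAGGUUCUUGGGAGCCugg

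Of 4 member hairpins tested, 0 passed the threshold among the 128 hairpins tested with limma, of which 0.781% passed, and at an unadjusted p under 0.05 there were 2, miR-99b and miR-125a, both with a lower ratio in the model group, where 5.47% of hairpins had one. Every model library was below every control in 3 of the 4, against 8.59% of hairpins. For miR-99b the log2 ratio of 5p to 3p counts was 7.56, 7.93 and 7.53 in controls and 5.72, 6.58 and 6.97 in model libraries. The geometric mean excess of the 5p arm was thus 204 times in controls and 85.8 times in model libraries, a difference of -1.25 on the log2 scale (SE 0.40, limma adjusted p = 0.259). For miR-125a the log2 ratios were 7.05, 7.03 and 8.40 in controls and 6.11, 5.87 and 6.63 in model libraries, or 180 and 73.7 times (difference -1.29, SE 0.46, limma adjusted p = 0.266). Without control replicate 45 this difference was -0.83, the value nearest to 0 among its alternatives.

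The miR-99a hairpin was the most one-sided of the 4. Its 5p arm exceeded the 3p arm 1197 times in controls and 711 times in model libraries, with log2 ratios of 10.23 ± 0.56 and 9.47 ± 0.23 (SD, n = 3 each; difference -0.75, SE 0.38, limma adjusted p = 0.401), and the difference was -0.43 without control replicate 45. For miR-100 the excess was 516 and 405 times and the groups overlapped (difference -0.35, SE 0.33, limma adjusted p = 0.720, and -0.60 without model replicate 57, -0.23 without model replicate 56 or -0.22 without model replicate 59). The 3p arms of the miR-10 hairpins, with 3 to 21 counts for miR-10a-3p and 4 to 16 for miR-10b-3p per library, were too scarce to test. The median difference over all 128 hairpins was 0.05.

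**Figure D3:**
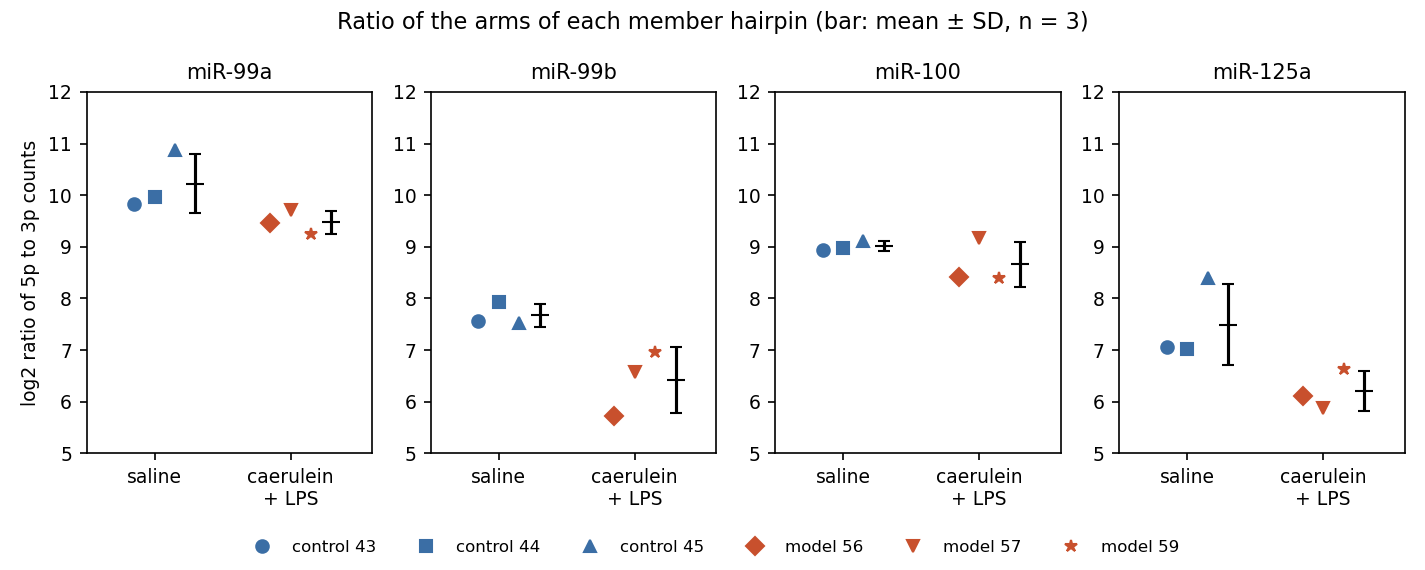
Log2 ratio of 5p to 3p counts (1 count added to each) in each library for the 4 member hairpins, with the mean ± SD of 3 libraries as a bar. Model libraries lie below all controls for miR-99a, miR-99b and miR-125a and overlap them for miR-100.

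The other arms of these hairpins and clusters, with miR-351 for its miR-125 seed, made up a list of 13 arms. All were in the table and 9 were tested, of which 0 passed edgeR's test over all rows, 1 had a higher and 5 a lower value in the model group at an unadjusted p under 0.05 (11.4% and 12.4% of all rows), and the median log2 fold change was -0.50. The 3p arms of the miR-125b hairpins allow these to be told apart where the shared 5p arm does not. From the chromosome 9 hairpin, miR-125b-1-3p was at 21.6, 16.6 and 16.2 CPM in controls and 38.9, 65.3 and 25.1 CPM in model libraries (log2 fold change 1.25, SE 0.39, adjusted p by edgeR = 0.118). From the chromosome 16 hairpin, miR-125b-2-3p had 34.7, 39.9 and 34.8 CPM in controls against 20.0, 27.9 and 20.6 CPM in model libraries (log2 fold change -0.67, SE 0.26, adjusted p by edgeR = 0.169).

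Per count of miR-125b-2-3p, the controls held 0.622, 0.415 and 0.466 counts of miR-125b-1-3p and the model libraries 1.94, 2.34 and 1.22. The chromosome 16 product thus had more counts in all 3 controls and the chromosome 9 product in all 3 model libraries. Because ligation efficiency differs between sequences, these counts do not show which product was the more abundant. The ratio was formed after the values had been seen and was not tested. In miR-125b-1-3p, as in miR-125a-3p, model replicate 57 was the highest library.

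The let-7 arms lie between the members in each cluster. In the chromosome 17 cluster, let-7e-5p was at 4261 ± 1115 CPM in control and 4984 ± 675 CPM in model libraries (log2 fold change 0.23, SE 0.23, adjusted p by edgeR = 0.640), and let-7e-3p at 60.7 ± 24.4 and 24.4 ± 2.72 CPM (log2 fold change -1.31, SE 0.33, adjusted p by edgeR = 0.0774). Its log2 arm ratio was thus 6.15 ± 0.95 in control and 7.65 ± 0.30 in model libraries (difference 1.50, SE 0.51, limma adjusted p = 0.266), opposite in sign to those of miR-99b and miR-125a on either side of it. On chromosomes 9 and 16, let-7a-5p and let-7c-5p, which other hairpins also give, had log2 fold changes of -0.50 and -0.51 (edgeR adjusted p = 0.0731 each), and the scarce let-7c-1-3p, with 11 to 46 counts in control and 4 to 6 in model libraries, had -2.82 (SE 0.68, adjusted p by edgeR = 0.0731). The seed-sharing miR-351-5p had 11.1 ± 4.05 CPM in controls against 15.1 ± 3.63 CPM in model libraries (log2 fold change 0.42, SE 0.37, adjusted p by edgeR = 0.569).

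**Figure D4:**
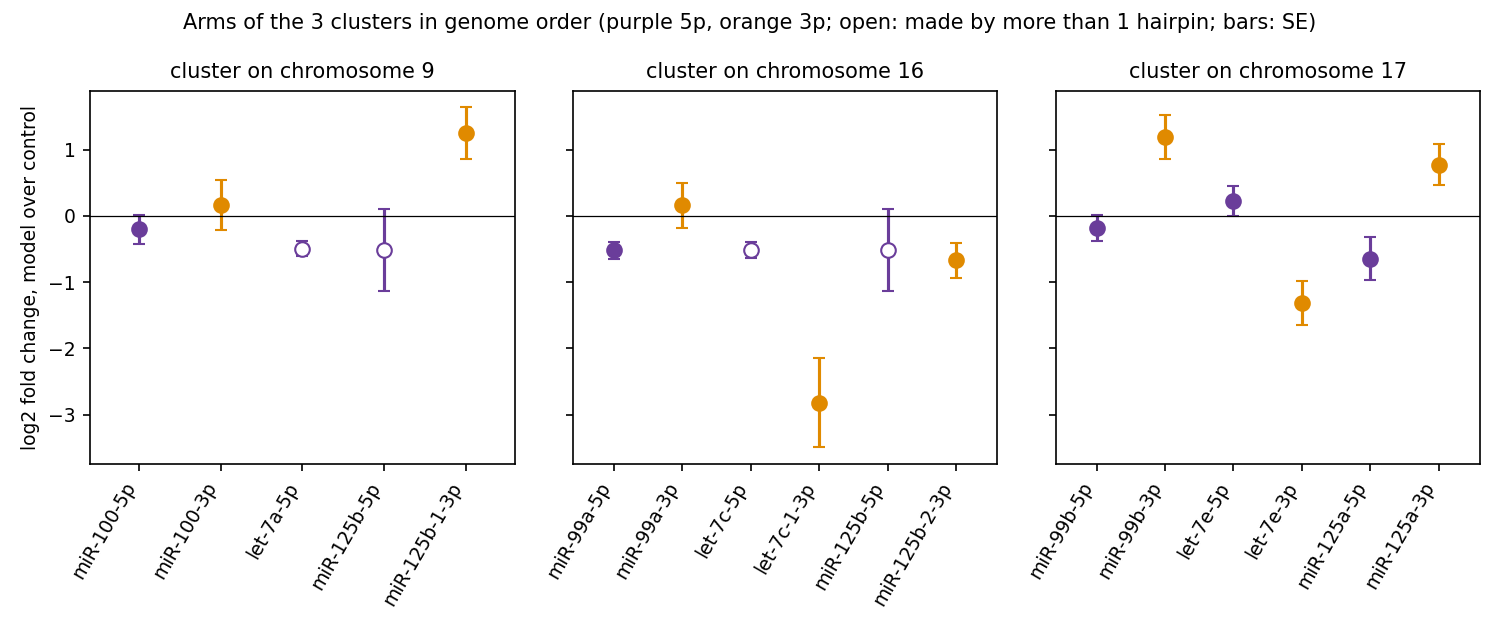
Log2 fold change (model over control, bars of 1 SE) of the tested arms of the 3 clusters, in genome order, with 5p arms in purple, 3p arms in orange and arms made by more than 1 hairpin as open symbols. In the chromosome 17 cluster miR-99b-3p (1.19) and miR-125a-3p (0.77) lie above 0 and let-7e-3p (-1.31) between them lies below it.

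Ratios between members, which are also free of scaling, were compared for 5 pairs with a two-sided exact permutation test. With 3 libraries against 3, p cannot go below 0.1. Groups did not overlap for 1 pair, miR-99b-5p over miR-99a-5p, at 0.199, 0.226 and 0.178 in controls and 0.241, 0.240 and 0.296 in model libraries (log2 difference 0.37, exact permutation p = 0.1, adjusted p = 0.333 over the 5 pairs). For miR-10b-5p over miR-10a-5p the ratio was 0.461 to 0.518 in controls and 0.476 to 0.567 in model libraries (log2 difference 0.15, exact permutation p = 0.2, adjusted p = 0.333), and the difference was 0.24 without model replicate 56. The ratio of miR-99a-5p over miR-100-5p was 8.76 to 11.6 and 7.12 to 8.90 (log2 difference -0.33, exact permutation p = 0.2, adjusted p = 0.333), and the difference was -0.20 without control replicate 45. The miR-125 pair gave a log2 difference of -0.40 for miR-125a-5p over miR-125b-5p (exact permutation p = 0.5, adjusted p = 0.625), from -0.12 without control replicate 44 to -0.77 without control replicate 45. For the cluster partners miR-99b-5p and miR-125a-5p, whose hairpins start 624 bp apart, the ratio ran from 1.27 to 4.60 in controls and from 3.13 to 3.55 in model libraries (log2 difference 0.40, exact permutation p = 0.7, adjusted p = 0.7).

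Across libraries the guide arms showed 2 patterns within the control group. Control replicate 44 was the highest of the 6 libraries for miR-10a-5p, miR-10b-5p, miR-99a-5p, miR-99b-5p and miR-100-5p, by 0.41 to 0.53 over each member's mean on the log2 scale. In the same library the miR-125 guide arms were low, by 0.22 for miR-125a-5p and 0.99 for miR-125b-5p. Control replicate 45 showed the opposite for miR-125, with miR-125a-5p 0.99 and miR-125b-5p 1.52 above their means. Thus miR-99b-5p and miR-125a-5p, of one cluster, differed in which control library was highest. The 5 miRNAs of mesenchymal and smooth muscle cells summed to 27991 CPM in control replicate 44 and to 17317 to 20913 CPM in the other libraries. Most of this sum was a single miRNA, miR-143-3p, with a control mean of 18656 CPM. The part of mesenchymal and smooth muscle cells in the first pattern was not tested.

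**Figure D5:**
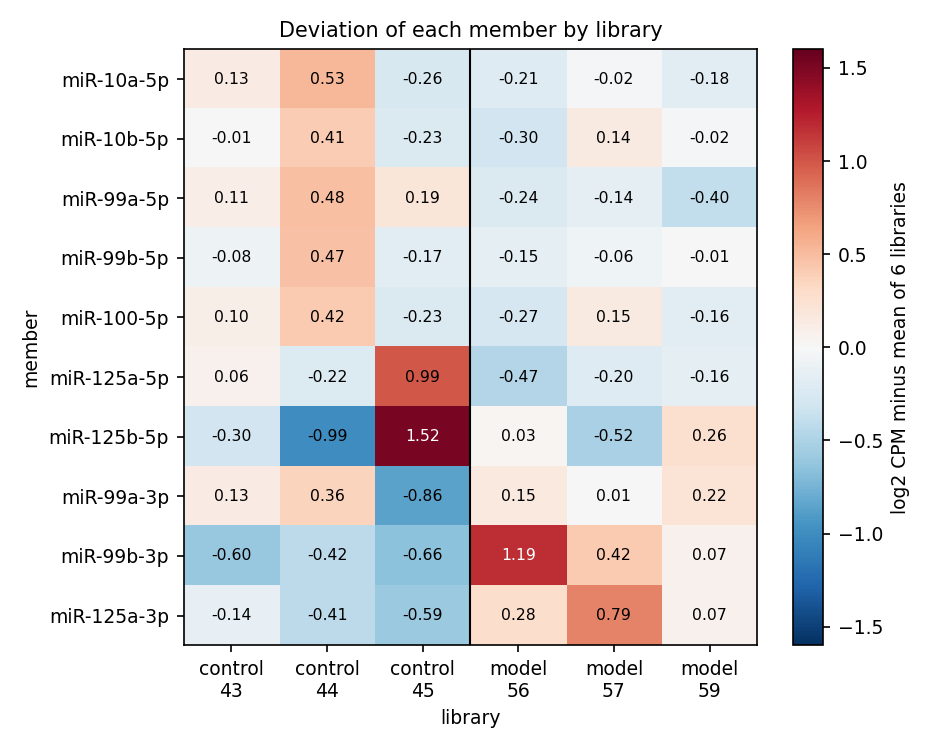
Log2 CPM of each member in each library minus that member's mean over the 6 libraries, as numbers and colour (red above, blue below the mean), with controls left of the line. Control replicate 44 is high for the miR-10 and miR-99/100 guide arms (0.41 to 0.53), control replicate 45 for the miR-125 guide arms (0.99 and 1.52), and the model libraries for miR-99b-3p and miR-125a-3p.

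The rows most like the leading member of each family were named by Pearson's r of log2(CPM + 1) over the 6 libraries, as a description and with no test, since with 499 rows and 6 libraries high values arise readily. For miR-10a-5p they were miR-23a-3p (0.992), miR-6969-3p (0.948) and miR-151-5p (0.943). For miR-99a-5p they were miR-700-3p (0.995), miR-744-3p (0.990) and miR-216a-3p (0.988). For miR-125b-5p they were miR-217-5p, which is on the acinar list (0.989), miR-29b-3p (0.984) and miR-30a-5p (0.983).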

How the data were processed

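Small RNA of 18 to 30 nt was gel-selected and ligated to adapters with molecular identifiers, per the labels' protocols. The deposited table held 1 row per mature arm, with whole-number read counts that the authors did not normalize, per the file headers. The authors' RPM values were each count divided by a library total, recovered here from rows holding 100 counts or more. The labels do not describe what this total covers, and the table's counts were 7.17 to 9.43% of it in control and 10.2 to 13.6% in model libraries. The submitters' processing notes name Bowtie2 and GRCm38.p6 without a role. Collapsing on identifiers is not described in the labels. All per-sample columns matched a library by name.

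Counts were tested with edgeR 4.0.16 (R 4.3.3): filterByExpr (minimum count 10, minimum total 15), TMM factors, robust glmQLFit and a two-sided glmQLFTest over 499 rows, with Benjamini-Hochberg adjustment and a threshold of 0.05. Arm ratios (1 count added, each arm averaging 10 counts or more) were tested with limma 3.58.1. Scripts were tested on simulated data. Alternatives were other scalings, no filter, DESeq2 1.42.0, row choices, the newer dispersion method, other count minimums and each library left out. All 10 members were named, with the other arms of their hairpins and clusters, miR-351 and the 3 rows most like each family's leading member. The members, lists and settings were chosen with earlier results of these data known.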

Additional observations from a re-analysis of the deposited data

How the results depend on the processing

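The count of members called, 0 of 10, became 1 with upper quartile factors, total counts alone and DESeq2, and 2 with the authors' library totals and with no filter on low counts. It was 0 in the other 10 alternatives, the 6 that leave out 1 library included. Over all rows the count of calls, 6, ran from 3 without control replicate 44, control replicate 45 or model replicate 57 to 126 with the authors' library totals; it was 15 with RLE factors and with predicted rows left out, 45 with upper quartile factors, 18 with total counts alone, 58 with no filter, 33 with DESeq2 and 10 without control replicate 43. The cause was not tested. With the authors' library totals the log2 fold change turned to 0.47 for miR-10a-5p, 0.66 for miR-10b-5p, 0.27 for miR-99a-5p, 0.61 for miR-99b-5p, 0.58 for miR-100-5p, 0.22 for miR-125a-5p and 0.40 for miR-125b-5p. With total counts alone it turned to 0.17 for miR-10b-5p, 0.13 for miR-99b-5p and 0.093 for miR-100-5p, and with upper quartile factors to -0.14 for miR-99a-3p. With 1 library left out it ran from -0.29 (without control replicate 45) to 0.052 (control replicate 44) for miR-10b-5p, and was 0.031 without model replicate 56. It ran from -0.32 (control replicate 45) to 0.039 (control replicate 44) for miR-99b-5p, from -0.92 (control replicate 44) to 0.54 (control replicate 45) for miR-125b-5p, and from -0.15 (control replicate 45) to 0.38 (control replicate 44) for miR-99a-3p. The ratio of miR-99b-5p over miR-125a-5p, a log2 difference of 0.40, ran from -0.073 without control replicate 45 to 0.85 over the fits that leave out 1 library. The arm ratio differences and the other 4 member ratios kept their sign in every alternative run. The ratio of miR-100 arms gave no value when each arm had to average 20 counts or more. No paired analysis was possible because control and model libraries share no replicate numbers. The 3p arms of the members had 23 to 319 counts per library, which limits their precision.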
